A study of Mus musculus with 4 samples.

Results

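The genes described here encode matricellular proteins, which are secreted into the extracellular matrix to modulate how cells attach, migrate and receive growth factors rather than to build the scaffold. Members were chosen by name as 10 genes, namely Sparc, Sparcl1, Smoc1 and Smoc2 of the SPARC family, the thrombospondins Thbs1 and Thbs2, the CCN genes Cyr61 (now Ccn1), Ctgf (Ccn2) and Nov (Ccn3), and the fasciclin-domain gene Postn. Each had 1 probe, so that 10 of the 33012 probes on the array were examined. SPARC binds collagen and is known in melanoma as a secreted protein that weakens adhesion. Cyr61 and Ctgf act through integrins and are textbook targets of the YAP and TEAD transcription factors and of TGF-beta, while thrombospondins bind the receptors CD36 and CD47 and restrain vessel growth.

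RNA came from 4 cultured mouse melanoma lines of C57Bl6 background, all grown in DMEM with 20% fetal bovine serum and measured on Applied Biosystems chemiluminescent arrays. B16 is the parental line, which the protocol calls B16F1. B16-RI was grown out of a lymph node metastasis after 1 round of intradermal injection, and B16-RII and B16-RIIL were grown out of lymph node and lung metastases after B16-RI had been injected for round 2. No line carries an engineered allele or had a drug treatment in the labels, and how many mice or clones stand behind each line is not given in the sources used here. RNA of 2 passage numbers was pooled for each line. The methods describe duplicate cultures of each line, and the deposited values include a second array per line that may be such a biological replicate. Those second arrays matched no labelled sample and were not used here. With the 1 array per line that the labels identify, the lines were not tested against each other, and the differences below carry no replicate error.

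A probe was taken as detected on an array when its signal-to-noise ratio (S/N) reached 3 and its analyzer flag did not exceed 5000. Between 13872 and 14855 probes were detected per array. The deposited normalized signal equals the raw signal divided by a constant that differs between 2 sets of probes, and this scaling left an offset. Among probes detected on all arrays, set 1, which held Sparc, Cyr61, Postn, Thbs1, Thbs2, Nov and Smoc2, had median differences from B16 of 0.39, 0.41 and 0.46 log2 units on the B16-RI, B16-RII and B16-RIIL arrays. Set 2, which held Sparcl1, Ctgf and Smoc1, had medians of 0.07, 0.42 and -0.01. The differences below are log2 differences of the deposited signal, given beside those left after each set was centred, on each array, on the median of its log2 signals wherever the choice matters. Levels were compared between arrays and not between genes. Where 4 values are given together they follow the order B16, B16-RI, B16-RII and B16-RIIL. A lower signal cannot be divided into fewer expressing cells and less RNA per cell.

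Of the 10 genes, 4 were detected on every array, namely Sparc, Sparcl1, Cyr61 and Ctgf. Postn was detected on B16 alone, and Thbs1, Thbs2, Nov, Smoc1 and Smoc2 were detected on no array. Over all probes with a gene symbol, 46.6% were detected on every array, 34.2% on none and 2.90% on B16 alone. The label of the lines as melanoma was checked on melanocyte markers. All 6 melanocyte markers present (Tyr, Tyrp1, Dct, Si, Mitf and Slc45a2) were detected on all 4 arrays, with no call against B16 in any line. Their summed normalized signals were 6395, 7613, 7874 and 7660. The brightest of them, Tyrp1, Dct and Si, are set 1 probes, so the sums carry the offset of that set. With centred sets the differences from B16 were -0.05, -0.24 and -0.35 log2 units for Tyrp1. They were -0.15, -0.13 and -0.12 for Dct and -0.18, -0.10 and -0.08 for Si. Slc45a2, of set 2, was at -0.10, 0.18 and -0.11. Mlana and Sox10 were not matched by symbol.

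**Figure D1:**
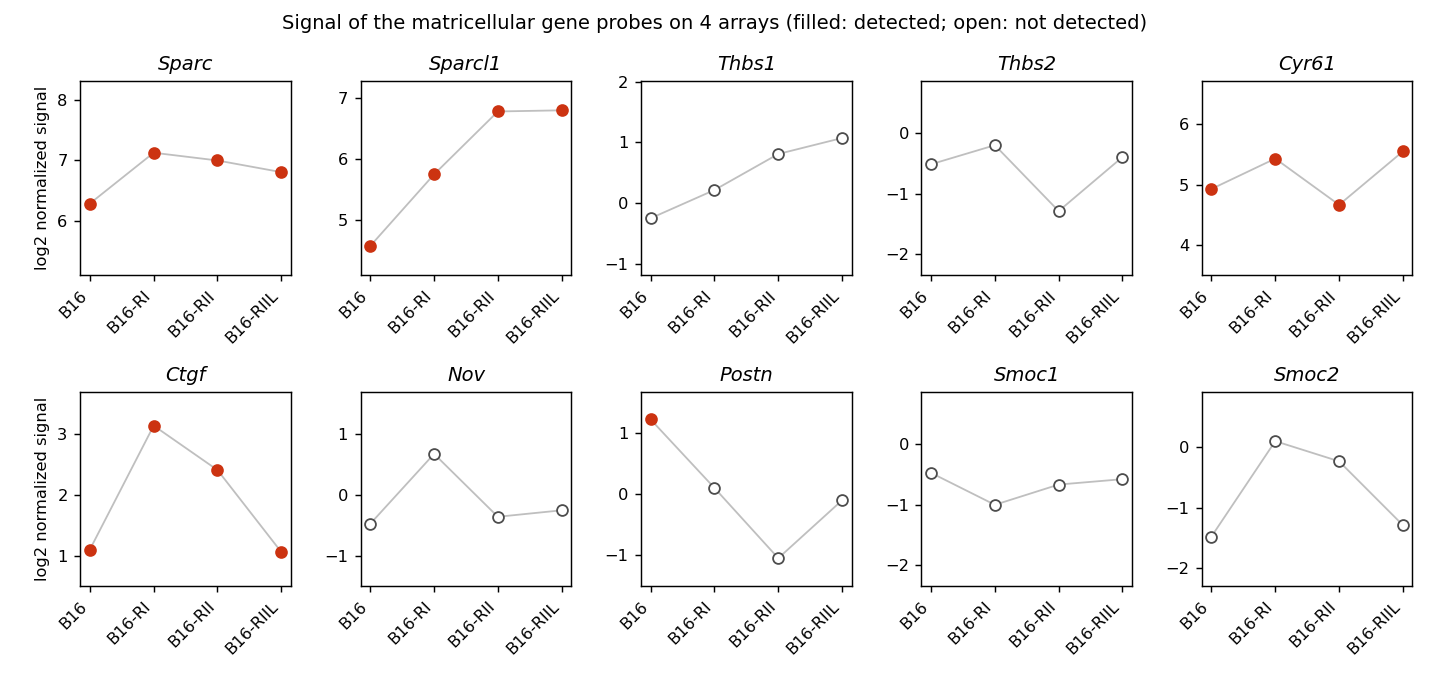
Log2 normalized signal (vertical axis, 1 probe per panel, every panel spanning the same height in log2 units) on the B16, B16-RI, B16-RII and B16-RIIL arrays, 1 array each, with filled points for detected and open points for undetected signals. Sparcl1 goes from 23.7 to 111.57 normalized units over the lines, Ctgf peaks at 8.85 on B16-RI, and Sparc and Cyr61 stay within 1 log2 unit.

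**Figure D2:**
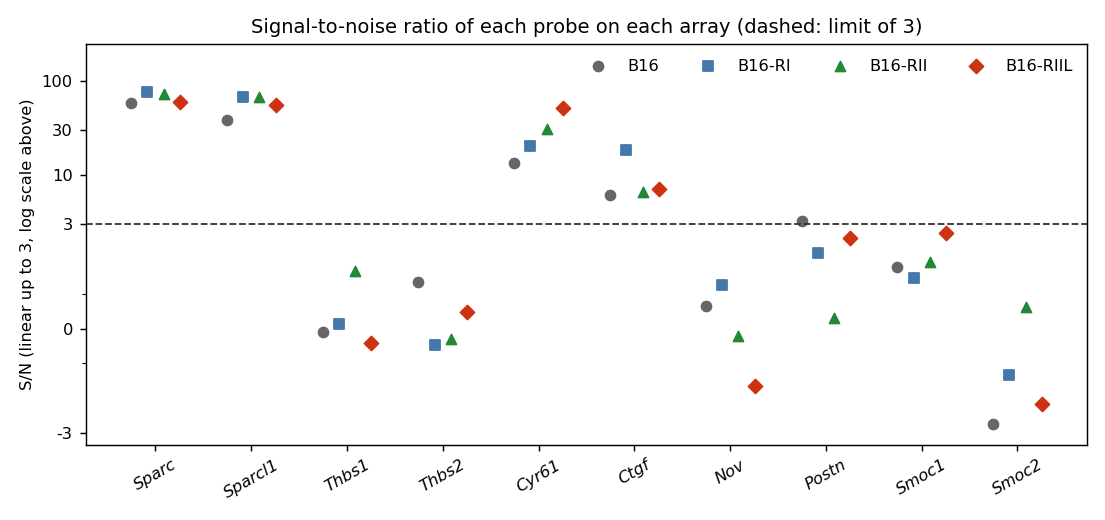
S/N (vertical axis, linear up to 3 and logarithmic above) of each of the 10 probes on each of the 4 arrays, with the detection limit of 3 dashed. Sparc, Sparcl1, Cyr61 and Ctgf lie above the limit on every array, Postn does so on B16 alone at 3.28, and the other 5 genes stay between -2.74 and 2.76.

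The RefSeq promoter table (GRCm38.p6, 250 bases before to 50 bases after a transcript start) held 5 windows for 4 of the members, Cyr61, Sparc, Thbs2 and Postn with 2 starts. Windows are printed for the 3 of these genes that were detected, to show what lies ahead of a gene bright on all arrays and of one detected on B16 alone. Motifs searched on both strands were GGAATG (TEAD), TATAAA (the TATA box) and CACGTG (E-box), which do not overlap in these windows and are in capitals where they occur. They occur in 14.7%, 13.6% and 7.15% of all 32851 windows of that length.

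The Cyr61 window, on the minus strand at chr3:145649936-145650235, holds the TEAD motif read on the opposite strand (as CATTCC) from 103 bases upstream of the start, and the TATA box from 25 bases upstream.
Cyr61: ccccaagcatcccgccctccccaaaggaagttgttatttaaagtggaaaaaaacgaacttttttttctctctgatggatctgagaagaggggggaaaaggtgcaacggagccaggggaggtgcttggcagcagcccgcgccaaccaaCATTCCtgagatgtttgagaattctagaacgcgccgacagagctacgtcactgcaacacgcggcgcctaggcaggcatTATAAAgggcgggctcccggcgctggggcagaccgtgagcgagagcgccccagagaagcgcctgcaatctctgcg

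The Sparc window, on the minus strand at chr11:55420031-55420330, holds none of these letters and has 4 CpG dinucleotides against 20 in the Cyr61 window and a median of 7 over all windows.
Sparc: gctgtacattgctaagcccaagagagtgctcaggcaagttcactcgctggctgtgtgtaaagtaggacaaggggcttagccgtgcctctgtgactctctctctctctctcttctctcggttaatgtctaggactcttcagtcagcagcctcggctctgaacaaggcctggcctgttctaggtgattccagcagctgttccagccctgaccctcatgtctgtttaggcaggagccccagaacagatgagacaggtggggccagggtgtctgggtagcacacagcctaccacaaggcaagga

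The Postn window at chr3:54360857-54361156, on the plus strand, holds the TATA box from 26 bases upstream, while the window of its other start holds none of the motifs.
Postn: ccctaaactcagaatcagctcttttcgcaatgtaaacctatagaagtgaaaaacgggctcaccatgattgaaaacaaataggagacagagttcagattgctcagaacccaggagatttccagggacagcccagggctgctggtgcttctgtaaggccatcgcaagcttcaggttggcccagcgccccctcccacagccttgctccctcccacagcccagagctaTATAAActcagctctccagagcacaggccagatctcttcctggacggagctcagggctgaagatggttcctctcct

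The matches describe letters in these windows, and factor binding was not measured.

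Sparcl1, which encodes the SPARC relative known as hevin, was, with Ctgf, one of the pair among the 4 members detected on every array whose signal ranged over more than 2 log2 units in the deposited values. The normalized signals were 23.7, 53.69, 110.12 and 111.57, with S/N from 39.09 to 68.56. The signal was lowest on the parental array and highest on the arrays of the round 2 lines, which lay only 0.02 log2 units apart. It was 2.27-fold B16 on B16-RI, 4.65-fold on B16-RII and 4.71-fold on B16-RIIL. On B16-RII the difference of 2.22 log2 units was 1.58 with quantile normalization, 1.70 with 75th percentile scaling and 1.79 with centred sets. Of the 12561 probes detected on both B16 and B16-RIIL, 0.263% had a difference at least as high, and the shares were 1.73% on B16-RI and 0.323% on B16-RII. Within its own probe set the shares were 1.02% on B16-RI, 0.323% on B16-RII and 0.173% on B16-RIIL. The range of 2.23 log2 units over the 4 arrays compares with a median range of 0.68 among the 11604 probes detected on every array, of which 0.595% had a range at least as wide. The range of Ctgf was narrower than that of Sparcl1 in the deposited values and with centred sets, but wider with quantile normalization (2.12 against 1.98) and 75th percentile scaling (2.18 against 2.00). The order B16, B16-RI, B16-RII and B16-RIIL held under all 4 scalings, while the gap between the round 2 lines, at 0.02 in the deposited values, was 0.40 with quantile normalization and 0.44 with centred probe sets. The difference of B16-RI from B16, 1.18 log2 units, was 0.96 with quantile normalization and so under 2-fold there.

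Among 8061 other named probes detected on every array, the profiles nearest to that of Sparcl1 were those of 6030411F23Rik (Cd276), Pvrl2 (Nectin2) and Il17b, at root mean square distances of 0.107, 0.123 and 0.126 log2 units over 4 arrays. On B16-RIIL they were above B16 by 2.01, 2.15 and 2.10 log2 units. In the RefSeq gene table Sparcl1 and Spp1 lie on the same chromosome with 4 protein-coding genes between them, all of the mineralized-tissue phosphoprotein cluster (Dspp, Dmp1, Ibsp and Mepe).

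Sparc itself differed less. The normalized signals were 78.12, 139.59, 127.76 and 111.82, with S/N of at least 58.82. All 3 passaged arrays were brighter than B16, by 0.84, 0.71 and 0.52 log2 units, and none reached 2-fold. With the probe sets centred the differences were 0.44, 0.28 and 0.00. Of the 12168 probes detected on both B16 and B16-RI, 6.29% had a difference at least as high as that of Sparc, and for B16-RIIL the share was 27.0% of 12561. Within its own probe set these shares were 9.55% and 43.1%. Among the passaged lines the order B16-RI, B16-RII and B16-RIIL, from high to low, was the same under all 4 scalings, with a span of 0.32 log2 units in the deposited values.

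The SPARC-related modular calcium-binding genes were below detection. Smoc1 had S/N of 1.78, 1.46, 1.92 and 2.76, the last being the value nearest below the limit among the undetected genes. Smoc2 had S/N of -2.74, -1.34, 0.61 and -2.17. Its normalized signals of 0.36, 1.07, 0.85 and 0.41 are therefore at background, and no fold is given.

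Ctgf, the connective tissue growth factor gene, had the other wide profile. Its normalized signals were 2.15, 8.85, 5.33 and 2.09, with S/N of 6.14, 18.5, 6.60 and 7.22. The lymph node lines were the bright ones, and the lung line lay next to the parental line. It was 4.12-fold B16 on B16-RI and 2.48-fold on B16-RII, and on B16-RIIL it differed from B16 by -0.04 log2 units. Only 0.263% of probes detected on both B16 and B16-RI had a difference at least as high, and the share on B16-RII was 2.36%. On B16-RII the difference of 1.31 log2 units was 0.93 with quantile normalization, 0.79 with 75th percentile scaling and 0.88 with centred sets, so that the 2-fold call there depended on the scaling. The value on B16-RI ranged from 1.90 to 2.04 over the 4 scalings. The range over the arrays was 2.08 log2 units, and 0.819% of probes detected on every array had one at least as wide.

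Between the lines of round 2, Ctgf was 2.55-fold brighter on the lymph node line B16-RII than on the lung line B16-RIIL, a difference of -1.35 log2 units that was -1.05 with quantile normalization, -1.06 with 75th percentile scaling and -0.93 with centred sets. Of the 13018 probes detected on both arrays, 0.776% had a difference at least as low, while within its own probe set 98.7% had one at least as high. B16-RIIL was derived from B16-RI, and Ctgf was 4.23-fold brighter on B16-RI than on B16-RIIL, with 0.105% of 12431 probes at least as low. This difference was -2.08 log2 units in the deposited values and lay between -2.09 and -2.18 under the other scalings.

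Cyr61, which encodes a related CCN protein, did not share this profile. The normalized signals were 30.47, 43.11, 25.42 and 46.78, with S/N from 13.41 to 52.27. B16-RII was the lowest array and B16-RIIL the highest, with the lung line above the lymph node line of round 2, where Ctgf had the opposite order. With centred sets B16-RI and B16-RIIL were level. Against B16 the differences were 0.50, -0.26 and 0.62 log2 units, none of them 2-fold, and with centred sets they were 0.10, -0.69 and 0.10. The difference between B16-RIIL and B16-RII was 0.88 log2 units in the deposited values and ran from 0.79 to 0.94 over the scalings, with 1.88% of probes detected on both arrays at least as high, or 2.76% within its own probe set. Nov, the remaining CCN member, had S/N of 0.66, 1.26, -0.22 and -1.65 and was not detected.

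**Figure D3:**
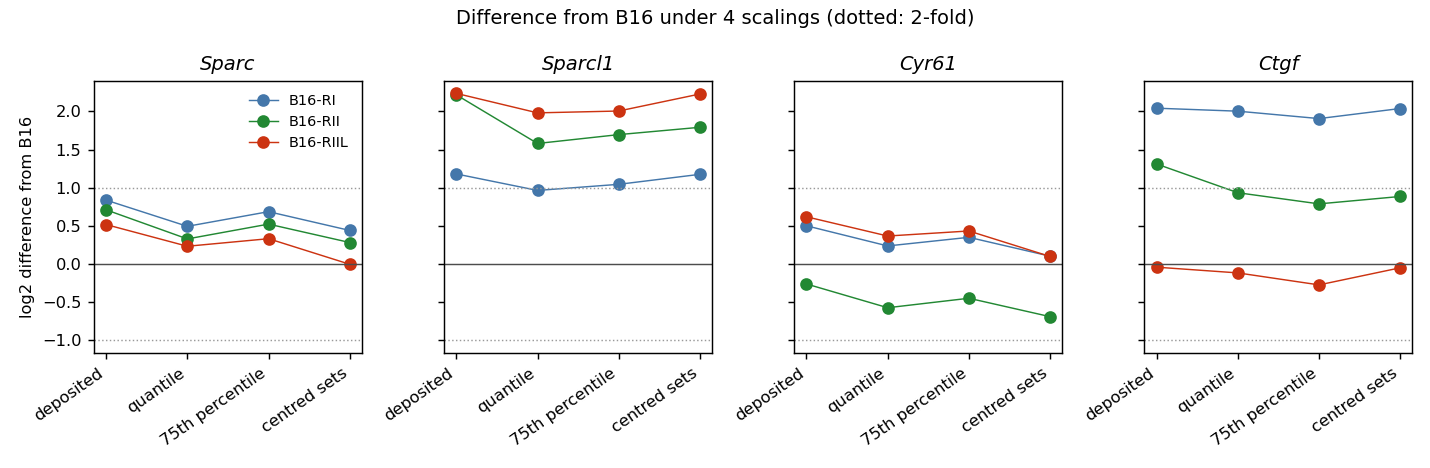
Log2 difference from B16 (vertical axis) of the 4 genes detected on every array, for each passaged line under 4 scalings, with dotted lines at 2-fold. Sparcl1 stays above B16 by at least 0.96 log2 units in every line, Ctgf on B16-RII lies above 2-fold with the deposited values only, and the excess of Sparc over B16 shrinks to 0.00 on B16-RIIL with centred sets.

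Both thrombospondins among the members were at background. Thbs3, which is not a member, was detected on B16 and B16-RIIL, with S/N of 8.70 and 11.38, and not on the lymph node lines. Thbs1 had S/N of -0.09, 0.14, 1.66 and -0.42, and Thbs2 had 1.35, -0.48, -0.29 and 0.48. The normalized signal of Thbs1 was 0.84, 1.16, 1.75 and 2.10, higher on each array in turn but not detected on any. Thbs2 and Smoc2 are adjacent protein-coding genes in the RefSeq table, with 0 genes between them, and neither was detected. A signal under the limit does not show that a transcript is absent.

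Postn, which encodes the fasciclin-domain protein periostin, was the only member dimmer than B16 on every passaged array by the rule used. The normalized signals were 2.34, 1.07, 0.48 and 0.93, with S/N of 3.28, 2.18, 0.30 and 2.60. The B16 signal was the one detected value and lay just over the limit. As measured it was 2.19-fold the signal of B16-RI, 4.88-fold that of B16-RII and 2.52-fold that of B16-RIIL. Those signals were undetected, so these ratios are not lower bounds. Because Postn passed the limit through B16 alone, and would not have passed an S/N of 5, this call rests on 1 dim signal.

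Counted together, 2 of the 10 members (Sparcl1 and Ctgf) were called above B16 on B16-RI, meaning at least 2-fold and detected on the brighter array, where 4.95% of all 33012 probes were called. The same 2 genes were called above on B16-RII, where 6.52% of probes were. On B16-RIIL 1 member, Sparcl1, was called above, beside 6.43% of probes. Postn was the 1 member called below on each array, beside 4.55% of probes on B16-RI, 3.79% on B16-RII and 4.25% on B16-RIIL. Between B16-RIIL and B16-RII, 0 members were called above, beside 3.86% of probes, and 1 (Ctgf) below, beside 4.73%. The comparisons with B16 share 1 B16 array. The 4 members detected on both arrays had median log2 differences from B16 of 1.01, 1.01 and 0.57 on B16-RI, B16-RII and B16-RIIL, where the medians over all such probes were 0.21, 0.40 and 0.21. With centred sets the medians of the members were 0.81, 0.58 and 0.05, against 0.02, -0.03 and -0.04 over all such probes. With so few members these counts and medians describe single genes and not the family.

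The lists set beside the members were chosen for function, with 1 probe per gene, the brightest. Of 19 other matricellular genes on the array, 9 were detected on no array, among them the tenascins Tnc, Tnn, Tnr and Tnxb. Called above B16 were 2 on B16-RI, 1 on B16-RII and 1 on B16-RIIL, and called below were 4, 2 and 4. Under the other 3 scalings the count below on B16-RII was 4 or 5. For this and the following lists, the shares over all probes were 4.95%, 6.52% and 6.43% above and 4.55%, 3.79% and 4.25% below. Of the genes called below in the deposited values, only Fbln1 was detected on both arrays compared. Spock3 and Fstl1 had S/N of only 3.09 and 3.27 on B16. Wisp1, the CCN4 gene, had the order of Ctgf over the 4 arrays, with normalized signals of 28.97, 64.63, 46.03 and 23.89. It was 2.23-fold B16 on B16-RI, a difference of 1.16 log2 units that was 0.91 with quantile normalization, and 0.825-fold on B16-RIIL, and its difference on B16-RII was 0.67 log2 units, or 0.02 with quantile normalization. Fbln1, a fibulin that binds fibronectin, had signals of 33.01, 11.55, 22.95 and 9.23, lower than B16 on all 3 passaged arrays and called below on B16-RI and B16-RIIL. On B16-RII its difference of -0.52 log2 units was -1.15 with quantile normalization and -1.05 with 75th percentile scaling, and so called below there. With centred sets it was -0.95. Tgfbi, the other fasciclin-domain gene of the list, was detected like Postn on B16 alone, at 1.58. Its S/N there was 3.76, so its calls too rest on 1 dim signal. On B16-RIIL its S/N was 2.84, and with quantile normalization it was not called below there, at -0.96 log2 units. Spp1, which encodes osteopontin, was the 1 gene of this list called above B16 on every passaged array.

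Among 16 receptors and surface partners, 7 were detected on every array, including the thrombospondin receptor Cd47, whose signal was 45.74, 56.78, 59.92 and 57.68. Cd47 is a set 1 probe, and its differences from B16 of 0.31, 0.39 and 0.33 log2 units became -0.09, -0.04 and -0.19 with centred sets. Cd36 was detected on no array. Called above B16 were 1, 2 and 0 genes on B16-RI, B16-RII and B16-RIIL, and called below were 1, 2 and 1. Sdc4, a heparan sulfate proteoglycan that binds matricellular proteins, was 1.88-fold B16 on B16-RI, 2.62-fold on B16-RII and 0.844-fold on B16-RIIL, so it too was lower on the lung line than on the lymph node lines. On B16-RII its difference of 1.39 log2 units was 0.82 with quantile normalization, 0.87 with 75th percentile scaling and 0.96 with centred sets, and under each of these 0 genes of the list were called above B16 there. Itgb5, an integrin subunit, was detected on B16 alone. Its measured signal there was 3.08-fold, 4.44-fold and 5.02-fold the undetected signals of B16-RI, B16-RII and B16-RIIL respectively. Like Postn it passed the limit through B16 alone, with an S/N of 3.04, so its calls rest on 1 dim signal. Itgb3 and Itga9, also integrin subunits, went the other way. Itgb3 was detected on B16-RI alone, with an S/N of 5.62, and was called above B16 there under all 4 scalings. Itga9, detected on every array, was 1.81-fold, 2.52-fold and 1.91-fold B16. On B16-RII its difference of 1.33 log2 units was 0.81 to 0.91 under the other scalings. No other integrin subunit of the list was called against B16.

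Of 12 TGF-beta genes, 1, 1 and 3 were called above B16 on B16-RI, B16-RII and B16-RIIL, and 1, 0 and 0 below. Under each of the other 3 scalings 1, 0 and 2 were called above, while the count below was 2 on B16-RI with centred sets and 1 on B16-RII with 75th percentile scaling. Smad7, an inhibitor that TGF-beta itself induces, was above B16 on every passaged array by 1.51, 1.08 and 1.01 log2 units, which became 1.11, 0.65 and 0.49 with centred sets, so that on B16-RII and B16-RIIL it passed 2-fold in the deposited values only. Of 14 YAP and TEAD genes on the array, 2, 2 and 3 were called above and 2, 0 and 1 below. Those above on B16-RII were Yap1, at 1.02 log2 units, and the tissue factor gene F3, at 1.12. Under each of the other 3 scalings 0 were called above there, with Yap1 at 0.34 to 0.60 and F3 at 0.57 to 0.70. The count above on B16-RI was 1 under each of those scalings, and on B16-RIIL it was 1 with 75th percentile scaling and 2 with the others. Amotl2, a YAP target, had normalized signals of 15.21, 33.82, 27.69 and 35.32. Its differences of 1.15 on B16-RI and 1.22 on B16-RIIL were 0.76 and 0.70 with centred sets, under 2-fold. Wwtr1, listed as 2310058J06Rik and encoding the YAP paralogue TAZ, was at 39.36, 35.86, 41.12 and 17.51, lowest on the lung line. Of 12 matrix partners, 1, 0 and 2 were called above, or 0, 0 and 1 with centred sets. Called below were 2, 1 and 1, or 2, 2 and 2 with centred sets, these on each array including Loxl2. The lists thus held calls in both directions at shares that were not tested. Of the calls below B16 in the deposited values, only those of Fbln1 and Wwtr1 had both signals detected. The others paired a B16 signal with an undetected one, so whether a list moved as a block was not tested.

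**Figure D4:**
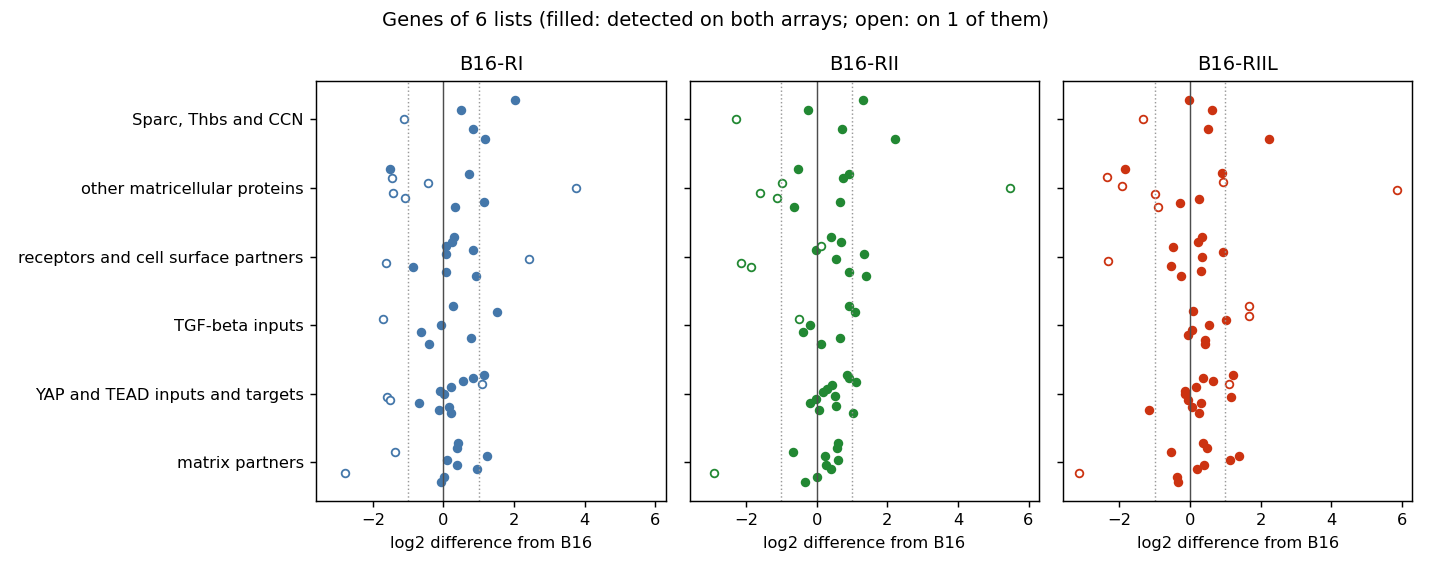
Log2 difference from B16 (horizontal axis) on each passaged array for the genes of 6 lists (rows) detected on at least 1 of the arrays compared, filled where detected on both and open where detected on 1, with dotted lines at 2-fold. Points lie on both sides of 0 in most lists, and the open point farthest to the right is Spp1.

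Most markers of other cell types were not detected. Of 7 fibroblast markers on the array, 1 was detected on each array, Pdgfrb on B16, B16-RI and B16-RII and Lum on B16-RIIL, and Col3a1, Dcn, Pdgfra, Thy1 and Fap were detected on none. Their summed normalized signal was 6.18, 7.52, 5.92 and 5.83. Of 8 endothelium markers, Pecam1 was detected on B16-RII and B16-RIIL and the other 7 on none, with sums of 4.43, 6.45, 6.73 and 5.54. Pecam1 had signals of 0.52, 1.34, 2.44 and 1.02 with S/N of 0.88, 2.22, 4.15 and 3.95. It was called above B16 on B16-RII, where its signal was 4.69-fold the undetected signal measured on B16. Of 7 macrophage markers, Csf1r was detected on B16 alone, with sums of 6.67, 6.69, 6.80 and 5.44. The part of other cells in the member signals was not tested.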

How the data were processed

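Expression was measured in 4 mouse melanoma lines on Applied Biosystems whole-genome mouse arrays with chemiluminescent detection. The authors deposited, for 33012 probes, a raw and a normalized signal intensity for each array, together with the analyzer's signal-to-noise and flag scores. Dividing the raw intensity by the normalized one gave 2 constants per array, for sets of 16524 and 16488 probes, with a largest residual of 0.0078. The methods name quantile normalization, which these values do not show. The genome build is not given in the sources used here.

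Log2 of the normalized intensity was taken without a pseudocount. The limits on S/N and flag are those of the methods, applied to single arrays. For a probe detected on 1 of 2 arrays, the dim side was set to its measured value or to the smallest signal among probes detected on that array, whichever was larger. The fold so obtained is not a lower bound on the difference in RNA, because the dim side was not detected. Columns analysed numbered 16. Not used were 30 columns of second arrays, 20 of them per-sample values, which match no labelled sample and may be the duplicates that the methods describe, and 14 columns of values derived from the arrays analysed, including the authors' ratios. Depth has no meaning here, and the number of arrays, 1 per line, limits the precision.

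The members and gene lists were chosen with earlier results of these data known. All member probes were named. A list gene could be named if it was detected on the brighter array and differed at least 2-fold from B16 in 1 or more lines, and genes named outside this rule (Cd47, Cd36, Tnc, Tnn, Tnr, Tnxb and single markers) were chosen after their values were seen. For the member with the widest range in the deposited values among those detected on every array (Sparcl1, although Ctgf was wider with quantile normalization and 75th percentile scaling), the 3 nearest profiles were named. Alternatives were quantile normalization, 75th percentile scaling, centring of each probe set on its median over probes detected on all arrays, an S/N of at least 5, detection on both arrays, no filter, a 4-fold limit and 1 probe per gene. Gene names came from RefSeq (GRCm38.p6), which held 16185 of the 17302 symbols given to probes. The counting was tested on simulated arrays. Python 3.11.15, numpy 2.4.6, pandas 2.3.3 and matplotlib 3.10.9 were used.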

Additional observations from a re-analysis of the deposited data

How the results depend on the processing

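Of 64 alternative counts of members above or below, for 8 counts and 8 alternatives, 44 stayed within 1.5 times the value given. These include the 8 with 1 probe per gene, which could not change because each member has 1 probe. Others were fixed in advance too. A count of 0 cannot rise under a stricter limit, and Sparcl1 and Ctgf, detected on every array, cannot be lost by requiring detection on both. The 44 are therefore not a measure of stability. No called difference changed sign. With quantile normalization 1 member instead of 2 was above B16 on B16-RI (Ctgf) and 1 instead of 2 on B16-RII (Sparcl1). On B16-RII 75th percentile scaling and centred probe sets also left 1 (Sparcl1), and centring left 0 members below B16-RII on B16-RIIL, because Ctgf fell short of 2-fold. An S/N of at least 5, or detection on both arrays, left 0 members below B16 on each passaged array, by construction, since Postn had an S/N of 3.28 on B16 and was detected nowhere else. A 4-fold limit left 1 above on B16-RI (Ctgf), 1 on B16-RII (Sparcl1), and 0 below B16 on B16-RI and B16-RIIL and 0 between B16-RIIL and B16-RII. Without a detection filter 4 members were above on B16-RI, 4 on B16-RII and 2 on B16-RIIL, and 2 were below on B16-RIIL against B16-RII. The added ones (Nov, Smoc2 and Thbs1) are signals at background. No paired analysis was possible because 1 array per line was used, and no replicate could be left out. Signal over background limits the 6 members not detected on every array.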
